A study of Mus musculus with 8 samples.

Results

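The 4 wild-type (WT) samples of the study were primary mandibular fibrochondrocytes, and they are 4 of the 8 samples in all. The other 4 came from NG2/CSPG4 knockout cells and are not described here. The WT samples were defined by their genotype label alone. That choice and the gene lists were made with earlier results of these data known. The mice were of the C57 BL/6J background, and the pups were 10 to 14 days old by the labels, or 14 days old by the sequencing methods of the study. Cells were released from the condylar cartilage of the jaw with collagenase overnight and grown in ordinary AMEM culture medium with serum, with no other treatment. RNA was collected at passage 4, and poly(A) RNA was sequenced in pairs. The methods of the study call the 4 replicates biological, and the sources do not say whether each came from its own pup or pool of pups. Because each sample is bulk RNA, fewer cells of a type and less RNA per cell cannot be told apart. One genotype has no contrast within it, so all values below are descriptions with no test.

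The mandibular condyle is covered by a fibrocartilage. Its fibrous surface holds flattened cells in a matrix rich in type I collagen, and deeper layers hold progenitors, cartilage cells that make type II collagen and aggrecan, and hypertrophic cells next to bone. Cells grown from cartilage on plastic are known to keep mesenchymal features and to lose cartilage matrix expression with passage. The type VI collagen around such cells binds NG2/CSPG4, the transmembrane proteoglycan that the study is about.

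The deposited table had 55401 gene entries. The WT libraries held 60317187, 83668935, 70172949 and 65926793 counts in replicates 1 to 4. Levels of different genes are compared here in FPKM (fragments mapped to a gene, scaled by transcript length and library depth), which allows for transcript length. Shares and the spread between libraries are given in counts or in CPM, counts scaled to library depth with TMM factors, a correction for library composition. A gene counted as detected where it had an FPKM of at least 1 and a count of at least 10 in each of the 4 libraries. Pairwise Pearson correlations of log2 CPM across genes lay between 0.974 and 0.978, and the first 3 principal components held 36.9%, 33.0% and 30.1% of the variance. No library stood apart on these measures, and no pair of libraries was within sampling noise of being a repeat deposit.

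The resting transcriptome had 11013 detected genes, of which 9944 were protein-coding (45.6% of the 21807 protein-coding entries). Each count of detected list members below is to be set beside this share. Another 832 were pseudogene entries, 187 were other non-coding genes and 50 were small RNA types, mitochondrial tRNA and rRNA entries included. No counts at all were present in 31176 entries, 6131 of them protein-coding. The median level of the detected genes was 6.97 FPKM. A mean of at least 100 FPKM was reached by 416 entries and a mean of at least 1000 FPKM by 28. Counts were spread over many genes. The genes that together held 50% of a library's counts numbered 642, 632, 654 and 613 in replicates 1 to 4, and the 30 entries of highest mean FPKM held 13.9% of all counts.

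Matrix, translation, lysosome and contractile genes led the order by level. Eef1a1, the elongation factor that brings aminoacyl-tRNA to the ribosome (chromosome 9, 78478449 to 78489151, minus strand, build GRCm38), had 3034, 2822, 3134 and 2954 FPKM in the 4 libraries and a mean of 2986 ± 132 (SD, n = 4). Col1a1, the main chain of type I collagen (chromosome 11, 94936224 to 94953042), had 2753, 3066, 2644 and 3171 FPKM, with a mean of 2908 FPKM. The ranges of Eef1a1 and Col1a1 overlapped, so neither was distinguishable as the higher. Sparc, a collagen-binding glycoprotein also known as osteonectin, followed at 2766 ± 112 FPKM, and its lowest library was above the highest library of Fn1. Fn1 encodes fibronectin, the adhesive glycoprotein to which integrins bind, and averaged 2388 ± 164 FPKM. By counts Fn1, a long transcript, was ahead of Col1a1, with 30808 ± 2300 CPM against 21071 ± 1893 CPM.

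**Figure D1:**
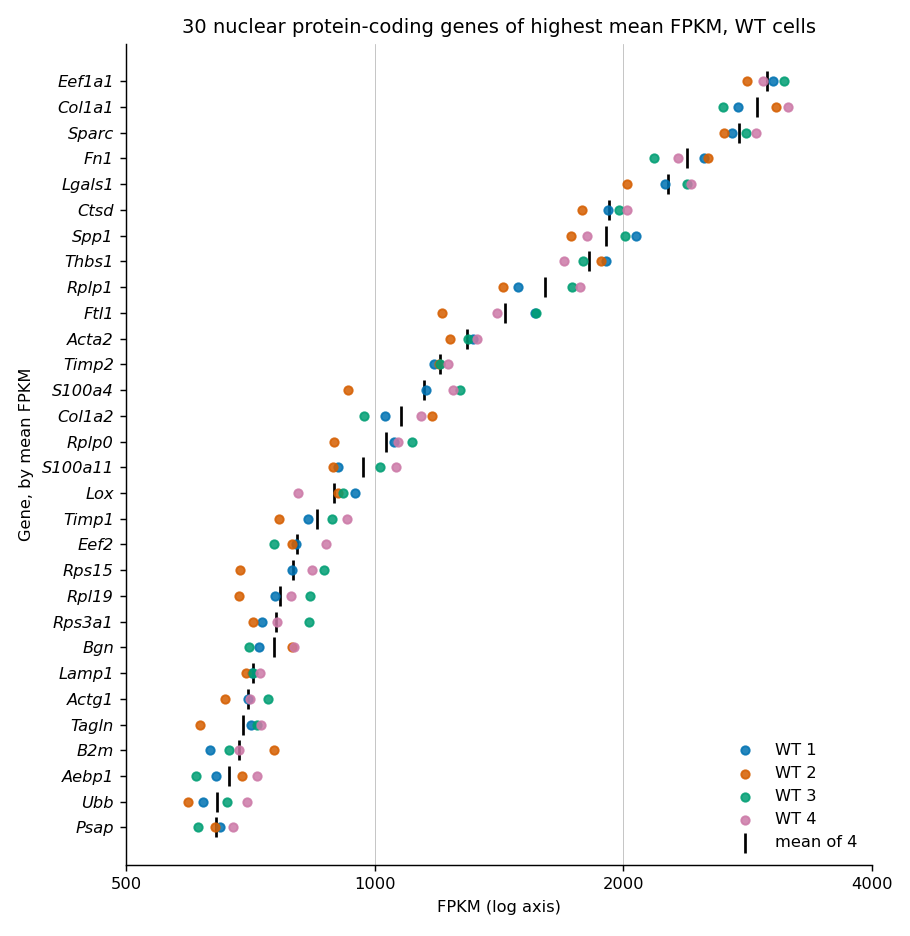
FPKM on a log axis for the 30 nuclear protein-coding genes of highest mean FPKM in WT cells, with 1 point for each library and a bar at the mean of 4. Neighbouring genes mostly overlap: of 29 neighbouring pairs, 26 have overlapping ranges and 3 do not.

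Next came Lgals1 (galectin-1, 2269 ± 180 FPKM), Ctsd (the lysosomal protease cathepsin D, 1924 ± 103 FPKM), Spp1 (osteopontin, 1905 ± 163 FPKM) and Thbs1 (thrombospondin-1, 1816 ± 97.1 FPKM). The lowest library of Lgals1 (2021 FPKM) was only just above the highest of Ctsd (2019 FPKM). Ctsd, Spp1 and Thbs1 overlapped one another in turn. The third gap in the order lay between Acta2 and Timp2. Acta2 encodes the actin of smooth muscle and of contractile fibroblasts, and had 1316, 1233, 1296 and 1329 FPKM. Timp2, an inhibitor of matrix metalloproteinases, had 1180, 1195, 1201 and 1225 FPKM. The other members of the leading 30 were ribosomal proteins (Rplp1 at 1607 ± 172 FPKM, Rplp0, Rps15, Rpl19 and Rps3a1), iron storage (Ftl1, 1436 ± 170 FPKM), the calcium-binding S100a4 and S100a11, Eef2, ubiquitin (Ubb), the major histocompatibility light chain B2m, the lysosomal proteins Lamp1 and Psap, and further matrix and actin-binding genes.

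**Figure D2:**
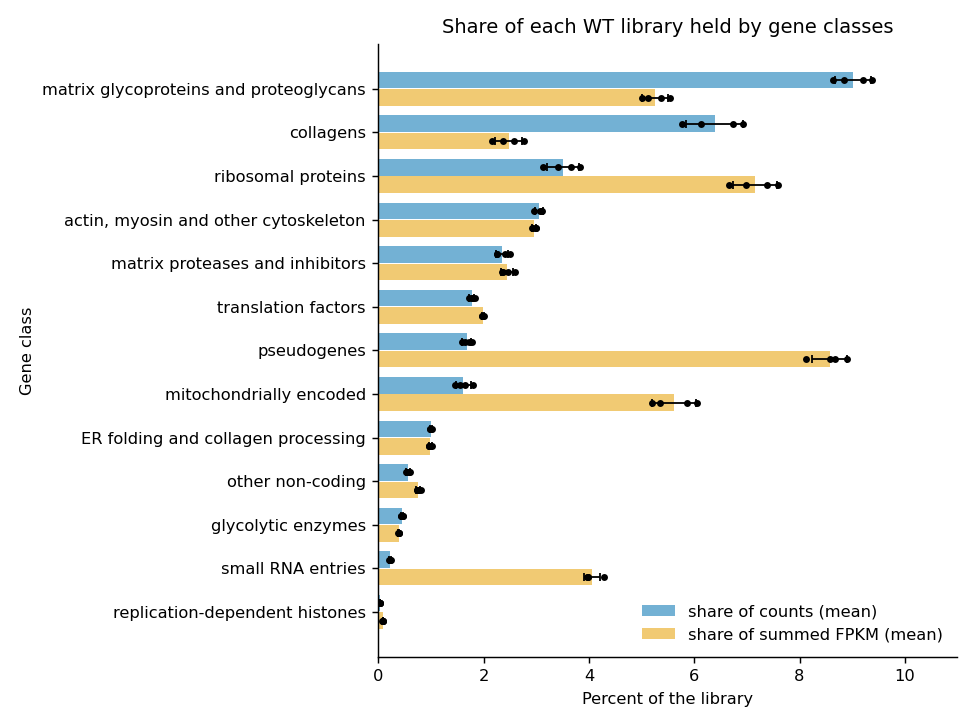
Share of each WT library held by 13 gene classes, as percent of counts (blue bars) and percent of summed FPKM (yellow bars); bars are means of 4 libraries, whiskers are SD and points are libraries. Collagens and matrix glycoproteins are larger by counts, whereas ribosomal, mitochondrial, pseudogene and small RNA classes are larger by summed FPKM.

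Classed by function, matrix genes held the largest listed shares of the counts. The 51 matrix glycoproteins and proteoglycans held 9.20%, 9.38%, 8.63% and 8.85% of the counts in replicates 1 to 4, a mean of 9.01 ± 0.338% (SD, n = 4). The 44 collagen genes held 6.39 ± 0.542%, and 27 matrix proteases and inhibitors 2.35 ± 0.115%. Together these 3 classes held 17.8 ± 0.758% of the counts. The protease class included cathepsins, such as the lysosomal Ctsd (4991 CPM), and the collagen chaperone Serpinh1 (1591 CPM). Serpinh1 is also on the ER folding list but was counted in the protease class only. Ribosomal proteins held 3.51 ± 0.304%, the actin, myosin and other cytoskeleton class 3.05 ± 0.0689%, translation factors 1.78 ± 0.0470% and pseudogenes 1.68 ± 0.0836%. Mitochondrially encoded genes held 1.61 ± 0.148% and ER folding and collagen processing genes 0.993 ± 0.0183%. Glycolytic enzymes held 0.448 ± 0.0204%, in which the copies of Gapdh described below are not counted. Replication-dependent histones held 0.0305 ± 0.00254%, a share of poly(A) RNA only. All other protein-coding genes held 68.4 ± 0.345%. A share of counts grows with transcript length and a share of summed FPKM does not, and the order of the classes depended on that choice. By summed FPKM the glycoproteins fell to 5.26% and the collagens to 2.47%, ribosomal proteins held 7.15%, pseudogenes 8.57%, mitochondrially encoded genes 5.62% and small RNA entries 4.05%.

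Several entries at the top of the FPKM order were short models that lie in or copy other genes. The highest of all entries, at 4796, 4410, 5389 and 5067 FPKM, was Gm22133. It is annotated as a miRNA of 109 bases on chromosome 7 (45458089 to 45458197) and lies inside Ftl1 on the same strand. By counts it held only 591 CPM against 2122 CPM for Ftl1. The miRNA entry Gm27597 (2309 FPKM, 80 bases) likewise lies within the bounds of Rpl19, and Gm26377 (1194 FPKM, 108 bases) within those of Eef1a1. Poly(A) libraries of long RNA do not measure mature miRNAs, and reads of the enclosing transcript cannot be told apart from such an entry. A run of copies of mitochondrial genes on chromosome 1 was also high, with Gm29216 at 1555 FPKM, Gm28661 at 1177 FPKM, Gm28437 at 1130 FPKM and Gm10925 at 1100 FPKM. Among the mitochondrial genes themselves mt-Co1, a subunit of cytochrome oxidase, led at 2784 ± 277 FPKM. For this reason the leading genes above were taken from nuclear protein-coding genes.

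Gapdh is a glycolytic enzyme that is widely used as a reference gene. Its own entry (chromosome 6, 125161715 to 125165773, minus strand) had only 45.3, 49.1, 49.1 and 55.3 CPM, or 10.9 ± 0.915 FPKM. The genome has 72 other entries with at least 95% identity to Gapdh over at least 500 bases, 70 of them pseudogenes, and 71 of the 72 had counts. Gm7336 had 157 CPM, Gm5559 123 CPM, Gm2606 109 CPM and Gm12033 102 CPM, each above Gapdh itself. Summed over Gapdh and its copies the level was 771, 750, 743 and 788 CPM, and the own entry held 6.52% of that sum. The coefficient of variation (CV) over the 4 libraries was 8.31% for the own entry and 2.71% for the sum. To show how alike the copies are, a stretch of 60 bases of the coding part of Gapdh is printed here (bases 1127 to 1186 of a transcript of 1420 bases, from the GENCODE vM21 annotation of GRCm38), which is found letter for letter in 49 other entries that together held 702 CPM.
Gapdh: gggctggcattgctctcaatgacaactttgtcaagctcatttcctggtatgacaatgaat
A read from this stretch matches each of those entries equally well, so the deposited Gapdh value is uncertain. The other 17 genes of the reference list were less affected: where they had such copies, their own entries held at least 96.2% of the sum. Gusb, a lysosomal enzyme, had the lowest CV of these after scaling (2.40%), followed by Hsp90ab1 (2.50%), while Rpl13a (20.9%) and Tbp (19.6%) spread more widely. Tbp, the TATA-binding protein, averaged 1.18 ± 0.235 FPKM and missed the detection rule in 1 library.

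Type I collagen dominated the collagen family. Among 11 fibrillar collagen genes, 8 were detected and none was below 0.1 FPKM in all libraries. Col1a2, the partner chain of Col1a1, had 1028, 1173, 971 and 1138 FPKM. Col3a1, which forms fibrils with type I collagen in fibrous tissue, had 562 ± 65.3 FPKM, and the fibril-nucleating Col5a1 and Col5a2 had 423 ± 35.5 and 399 ± 30.3 FPKM. The ratio of Col1a1 to Col1a2 was 2.70 ± 0.0726 over the 4 libraries, close to constant. Col2a1, the type II collagen of hyaline cartilage, had 4.79, 4.92, 4.40 and 5.06 FPKM. Col1a1 was thus 607 ± 23.8 times Col2a1 on the FPKM scale. Col11a1, a minor fibrillar chain of cartilage that fibroblasts also make, had 51.3 ± 7.21 FPKM.

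Of 14 pericellular and basement membrane collagen genes, 7 were detected and 5 were below 0.1 FPKM in all libraries. The classical type VI chains, which form the beaded filaments around the cell, were all present. Col6a1 had 396, 446, 389 and 446 FPKM, Col6a2 averaged 190 ± 15.8 and Col6a3 103 ± 9.96 FPKM. The related chains Col6a4, Col6a5 and Col6a6 were nearly silent, with Col6a5 listed at 0 in all 4 libraries and means of 0.00150 FPKM for Col6a4 and 0.00424 FPKM for Col6a6. Type IV collagen was represented by Col4a1 (136 ± 18.3 FPKM) and Col4a2 (165 ± 16.5 FPKM). Among 11 fibril-associated and other collagens, 5 were detected: Col12a1 led at 203 ± 24.8 FPKM, ahead of Col8a1 at 144 ± 9.15 FPKM. The type IX collagen genes of cartilage were near absent, at 0.00400 FPKM for Col9a1, 0.147 for Col9a2 and 0.186 for Col9a3.

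The glycoprotein and proteoglycan list was nearly complete, with 46 of 51 members detected, beside 45.6% of all protein-coding entries. Of the rest 1, Vtn, was below 0.1 FPKM in all libraries. Small leucine-rich proteoglycans, which bind collagen fibrils, were abundant. Bgn (biglycan) had 755 ± 48.2 FPKM, Fmod (fibromodulin) 603 ± 56.3, Lum (lumican) 245 ± 16.6, Prelp 204 ± 12, Aspn (asporin) 195 ± 18.0 and Dcn (decorin) 117 ± 6.72 FPKM. Large aggregating proteoglycans were low: Acan (aggrecan) had 6.20 ± 0.759 FPKM and Vcan (versican) 9.58 ± 1.53 FPKM. Mgp, the matrix Gla protein that inhibits mineral deposition, had 524 ± 34.2 FPKM, and Lox, which cross-links collagen and elastin, 893 ± 59.7 FPKM. Elastin itself (Eln) was at 0.103 ± 0.0174 FPKM.

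Among proteases and inhibitors, 23 of 27 were detected, beside 45.6% of all protein-coding entries. Mmp2, a gelatinase, had 562, 619, 510 and 601 FPKM, and its inhibitor Timp2 stood above it in each library, with a ratio of 2.11 ± 0.180. Timp1 (852 ± 69.4 FPKM), Ctsk (cathepsin K, 361 ± 28.8 FPKM), Mmp14 (191 ± 9.69 FPKM) and Timp3 (175 ± 8.64 FPKM) followed. Proteases known for cartilage breakdown were lower. Mmp13, the collagenase of hypertrophic cartilage, had 19.6, 25.7, 21.5 and 17.5 FPKM. The aggrecanases Adamts5 and Adamts4 averaged 9.96 ± 1.0 and 4.89 ± 0.415 FPKM, and Mmp3 0.594 ± 0.190 FPKM. Mmp10 was listed at 0 in all 4 libraries. Collagen needs folding aid in the endoplasmic reticulum, and all 23 measured members of that list were detected, led by Serpinh1 (the collagen chaperone HSP47, described with the variable genes), Calr at 504 ± 11.1 FPKM and P4hb at 489 ± 25.7 FPKM.

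Contractile genes were prominent for cells that the labels call fibrochondrocytes. Of the 42 members of the actin, myosin and cytoskeleton list, 40 were detected, with a median level of 138 FPKM beside 6.97 FPKM over all detected genes. Actg1, a cytoplasmic actin, had 701, 659, 742 and 706 FPKM. Tagln (transgelin, an actin-bundling protein of smooth muscle and myofibroblasts) had 707, 614, 720 and 727 FPKM, and the myosin light chain Myl9 had 292, 284, 308 and 323 FPKM. Other genes known from smooth muscle were spread widely in level, with Actg2, its gamma actin, at 155 ± 10.4 FPKM, Cnn1 (calponin) at 14.1 ± 1.5 FPKM, Myh11 at 1.1 ± 0.130 FPKM and Des (desmin) at 0.364 ± 0.145 FPKM. Genes of this kind are known targets of serum response factor, which binds the CArG box. A CArG box on either strand was found in 6 of the 36 members with a promoter in the RefSeq table (16.7%), beside 1.57% of all 27025 promoters of the same length. The promoters of Actg1 and Myl9 are printed because both are abundant here and hold the motif. They run from 250 bases before to 50 bases after the RefSeq start (build GRCm38.p6), with the motif in capitals.
Actg1 (chr11:120348446-120348745, minus strand): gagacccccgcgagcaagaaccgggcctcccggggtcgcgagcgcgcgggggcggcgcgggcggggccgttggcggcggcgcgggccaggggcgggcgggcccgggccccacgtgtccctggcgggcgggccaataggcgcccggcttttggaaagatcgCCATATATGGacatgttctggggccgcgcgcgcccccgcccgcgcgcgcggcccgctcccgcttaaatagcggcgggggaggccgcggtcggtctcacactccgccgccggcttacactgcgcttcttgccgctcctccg
Myl9 (chr2:156775214-156775513, plus strand): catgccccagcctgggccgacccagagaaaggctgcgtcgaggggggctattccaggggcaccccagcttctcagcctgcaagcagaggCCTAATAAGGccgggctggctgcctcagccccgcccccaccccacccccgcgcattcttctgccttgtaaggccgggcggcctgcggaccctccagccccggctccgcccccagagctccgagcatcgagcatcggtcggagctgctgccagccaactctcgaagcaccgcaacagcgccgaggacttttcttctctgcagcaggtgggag
The match lies 90 bases before the start in Actg1 and 161 bases before it in Myl9. A match describes the sequence and not binding.

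The label of the cells was then checked against marker genes. Members of 20 cell type lists were sorted into detected, below 0.1 FPKM in all 4 libraries, and between. Of 217 distinct members 82 were detected, beside 45.6% of all protein-coding entries. The lists with the most members present were those of fibrous and mesenchymal cells. On the fibrous superficial layer list 13 of 16 were detected, on the tendon and ligament list 7 of 8, on the fibroblast list 13 of 16, on the skeletal progenitor list 11 of 14 and on the hypertrophic chondrocyte list 7 of 9. The chondrocyte list had 8 of 19 detected, 7 between and 4 below 0.1 FPKM.

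**Figure D3:**
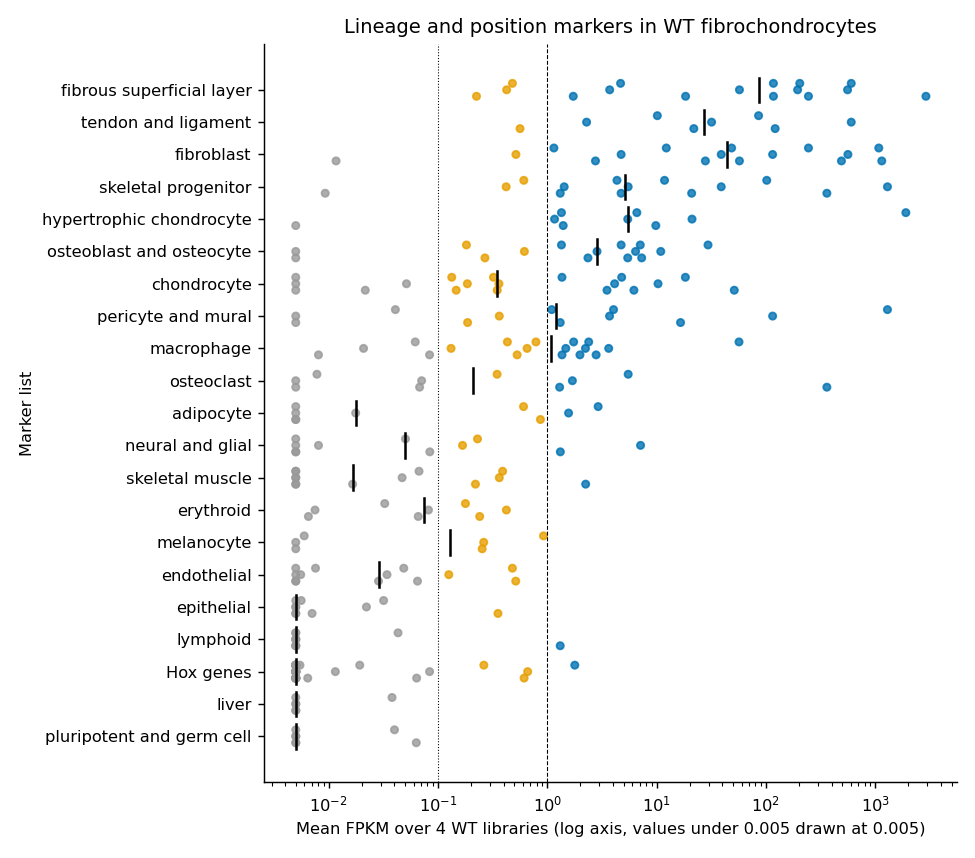
Mean FPKM over the 4 WT libraries (log axis) of each member of 20 cell type lists and of the Hox genes; blue points have a mean of at least 1 FPKM, orange points from 0.1 to 1 and gray points under 0.1, and black bars are list medians. Medians are highest for the fibrous (87.1 FPKM), fibroblast (43.8) and tendon (26.9) lists, then hypertrophic chondrocyte (5.44) and skeletal progenitor (5.11). Endothelial, epithelial, lymphoid, liver and germ cell lists lie at or near 0.

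Cartilage genes were therefore present in part. Sox9, the master transcription factor of chondrocytes, had 18.3, 20.1, 18.2 and 16.8 FPKM. Its partners were weak, with Sox6 at 1.36 ± 0.119 FPKM and Sox5 at 0.361 ± 0.0676 FPKM. Beside Sox9, Sox6, Col2a1 and Acan, the detected members were Col11a1, Comp (10.3 ± 0.845 FPKM), Ucma (4.13 ± 0.236 FPKM) and the link protein Hapln1 (3.52 ± 0.20 FPKM). Matn1 (matrilin-1, a marker of mature cartilage) and Snorc were listed at 0 in all 4 libraries, and Cnmd (chondromodulin) was at 0.348 ± 0.165 FPKM. The defining markers of hyaline cartilage were thus low or absent. Some members of the fibrous superficial layer list were high, namely Col1a1, Fmod, Postn (periostin, 558 ± 61.3 FPKM) and Lum (245 ± 16.6 FPKM). Lum is on the fibroblast list as well. Other members of the superficial layer list were low, with Cilp at 1.73 ± 0.277 FPKM and Cilp2 at 0.425 ± 0.138 FPKM. Prg4, the lubricin of the joint surface and also on that list, was detected but low, at 4.73, 5.76, 5.56 and 2.68 FPKM.

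Genes of hypertrophy and of bone were mixed. Spp1 was among the leading genes, Mmp13 and Runx2 (5.44 ± 0.309 FPKM), the transcription factor of bone and hypertrophic cartilage, were detected, and Col10a1, the collagen of hypertrophic cartilage, was at 1.58, 1.25, 1.33 and 1.43 FPKM. Ihh, the signal made by prehypertrophic chondrocytes, was listed at 0 in all 4 libraries. On the osteoblast and osteocyte list 9 of 15 were detected. The osteocalcin gene Bglap2 led with 29.5 ± 2.10 FPKM, followed by Dlx5 at 10.9 ± 1.44 FPKM. Sp7 (osterix) had 2.35 ± 0.287 FPKM, and the osteocyte genes Mepe and Sost were listed at 0. Tendon genes were present beside these: Scx (scleraxis, a transcription factor of tendon progenitors) had 20.9, 20.2, 24.6 and 21.9 FPKM, Thbs4 averaged 121 ± 5.94 FPKM, Tnc (tenascin-C) 85.6 ± 12.4 FPKM and Tnmd (tenomodulin) 10.2 ± 0.95 FPKM.

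Cspg4, the gene of NG2/CSPG4 (chromosome 9, 56865033 to 56899870), had 17.1, 16.03, 15.2 and 17.9 FPKM in the WT libraries. Its mean of 16.6 ± 1.16 FPKM ranked 2715 among all entries. Cspg4 is also a marker of pericytes, the cells around capillaries. Of that list 6 of 12 were detected, among them Pdgfrb, the receptor of platelet-derived growth factor B, at 115 ± 6.0 FPKM. The more specific pericyte genes Rgs5 (0.187 ± 0.0390 FPKM) and Abcc9 (0.0407 FPKM) were low, and Kcnj8 and Higd1b were listed at 0. Among the study's RT-qPCR targets, Col6a1 (419 ± 30.9 FPKM) and Pdgfrb were the highest, then Mmp13 (21.1 ± 3.50), the chemokine Ccl2 (16.8 ± 3.01), Cspg4, Tgfb1 (12.9 ± 0.817) and Adamts5. Gapdh, to which the study normalized its RT-qPCR data, lay between Tgfb1 and Adamts5 by its own entry. That entry held only 6.52% of the sum with its copies, so this place is uncertain. The ranges of Mmp13, Ccl2 and Cspg4 overlapped from one to the next, whereas the lowest library of Cspg4 (15.2 FPKM) was above the highest of Tgfb1 (14.1 FPKM). Of the ERK cascade proteins probed on western blots, 7 of 8 genes were detected. Mapk3 (ERK1) had 79.4, 69.2, 74.4 and 82.3 FPKM. The kinases upstream of it, Map2k1 and Map2k2 (MEK1 and MEK2), had 27.3 ± 0.771 and 16.9 ± 1.04 FPKM, and the RSK kinases Rps6ka3, Rps6ka2 and Rps6ka1 5.0 ± 1.1, 4.09 ± 0.170 and 1.06 ± 0.176 FPKM.

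Other cell types left little RNA in the cultures. Of 13 endothelial markers none was detected and 10 were below 0.1 FPKM, with Pecam1 at 0.0486 FPKM. No epithelial (of 10), melanocyte (of 6), erythroid (of 8), liver (of 6) or pluripotent and germ cell (of 7) marker was detected. Lists with 1 member detected were the lymphoid one (Gzmb, 1.31 ± 0.210 FPKM, with 7 of the 10 members at 0), skeletal muscle (Acta1, 2.24 ± 0.285 FPKM, of 13) and neural and glial (Tubb3, a neuronal tubulin, 7.13 ± 0.488 FPKM, of 11). On the adipocyte list the transcription factors Cebpa (2.92 ± 0.367 FPKM) and Pparg (1.57 ± 0.190 FPKM) were detected among 9. Macrophage markers were detected more often than those above, in 9 of 18 cases, which is near the 45.6% of all protein-coding entries. Of the rest 7 lay between and 2 were below 0.1 FPKM, and the list median was 1.075 FPKM. The lysozyme gene Lyz2 led with 58.1, 49.1, 62.4 and 57.2 FPKM. Cd68 (3.65 ± 0.348 FPKM), Ctss (2.80 ± 0.357 FPKM) and the complement gene C1qb (2.39 ± 0.532 FPKM) followed. Ptprc, the pan-leukocyte antigen CD45, was at 0.0209 FPKM and Aif1 at 0.00807 FPKM. No member of the list was at 0 in all 4 libraries, and its summed level was 78.0, 68.9, 84.2 and 77.1 FPKM in replicates 1 to 4. On the osteoclast list 4 of 10 were detected, with Ctsk far above the next member Nfatc1 (5.49 ± 0.696 FPKM), and Calcr and Dcstamp were listed at 0.

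Genes of position along the body axis were unequal in level. Hox genes give posterior identity and are off in the first pharyngeal arch, from which the jaw forms. They were nearly silent here. Of 39 Hox genes 26 were at 0 in all libraries, beside 6131 of all 21807 protein-coding entries. Below 0.1 FPKM in all libraries were 33 of the 39. The exceptions were Hoxc13 with 1.48, 1.73, 1.84 and 2.08 FPKM, which was detected, and 5 genes between, among them Hoxd8 (0.661 ± 0.0763 FPKM). Of 30 homeobox and other factors that pattern the jaw, 18 were detected, beside 45.6% of all protein-coding entries. Another 6 were below 0.1 FPKM in all libraries, and the list median was 2.87 FPKM. Prrx2 had 70.0, 64.5, 73.3 and 72.2 FPKM, Barx1 averaged 48.7 ± 3.85, Pitx1 45.9 ± 2.42 and Prrx1 39.0 ± 2.23 FPKM. Dlx5 and Dlx6, which specify the lower jaw, had 10.9 ± 1.44 and 6.08 ± 0.566 FPKM. Hand1 and Hand2, factors of the distal arch in the embryo, were listed at 0.

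Mitotic genes were low, and cell cycle inhibitors were unequal in level. Of 30 proliferation genes, 22 were detected, beside 45.6% of all protein-coding entries. Their median was 2.45 FPKM over all 30, beside 6.97 FPKM over all detected genes. Mki67, a marker of cycling cells, had 1.02, 1.42, 1.21 and 0.801 FPKM. Pcna was the highest of the list at 19.1 ± 0.904 FPKM. The inhibitor Cdkn1a (p21) had 194, 199, 198 and 219 FPKM, Cdkn2a (which encodes p16 and ARF) 164, 137, 154 and 165 FPKM and Cdkn2b (p15) averaged 94.8 ± 5.19 FPKM. Other brakes on the cycle were lower, with Cdkn1b (p27) at 5.76 ± 1.14 FPKM, Cdkn2c (p18) at 4.19 ± 0.472 FPKM and Rb1, the retinoblastoma protein, at 3.31 ± 0.391 FPKM. Within a library Cdkn1a was 191, 140, 163 and 274 times Mki67 on the FPKM scale. Ccnd1, the cyclin that drives entry to the cycle in response to growth factors, was also high at 166 ± 2.61 FPKM. Il6, a cytokine of the senescent secretion, was at 0.338 ± 0.113 FPKM.

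Stress and inflammatory genes were measured as further signs of cell state. The counts of detected members stand beside 45.6% of all protein-coding entries. On the inflammatory list 7 of 20 were detected: Csf1 (103 ± 2.31 FPKM), Cxcl14 (28.1 ± 1.59), Ptgs2 (23.9 ± 3.11), Ccl7 (21.8 ± 3.32), Ccl2, Cxcl12 (5.49 ± 0.443) and Cxcl5 (4.48 ± 0.747 FPKM). Il1b and Cxcl2 were listed at 0, and Tnf averaged 0.0246 FPKM. The immediate early genes, which rise within minutes of serum or handling, had 19 of 20 members detected, with Klf4 at 58.8 ± 2.90, Jund at 49.1 ± 2.82 and Fos at 4.41 ± 1.05 FPKM. Heat shock genes were all detected (11 of 11), led by Hsp90ab1 at 597 ± 16.3 and Hspa8 at 350 ± 45.2 FPKM, with the inducible Hspa1a at 5.98 ± 0.725 FPKM. Targets of the amino acid stress factor ATF4 were detected in 14 of 15 cases, with Phgdh (serine synthesis) at 114 ± 11.9 and Ddit3 (CHOP) at 75.3 ± 5.29 FPKM. Sterol synthesis genes were detected in 15 of 16 cases, led by Insig1 at 58.2 ± 4.30 FPKM. Of 17 glycolytic genes 16 were detected, with Pkm at 258 ± 17.1 FPKM the highest as listed. Gapdh stands in that order by its own entry alone, which held 6.52% of the sum with its copies. Its true place is therefore uncertain.

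The spread between the 4 libraries was measured as the CV of CPM and as the excess CV, which is what remains after the part that counting alone gives. Over the 13452 genes that averaged 1 CPM or more, the median CV was 9.69% and the median excess CV 9.03%. Over the 10774 genes that averaged 5 CPM or more, the median excess CV was 8.01%, the middle range ran from 5.12% to 12.4% (25th to 75th percentile), and 128 genes (1.19%) were above 50%. edgeR's common biological CV over the 4 libraries was 0.188. By list, the smallest median excess CV belonged to translation factors (5.74%) and the actin, myosin and cytoskeleton list (6.40%) among lists of at least 14 measured genes, and the interferon response list had the highest of these, 18.9%. Collagens stood near or above the middle, with 11.1% on the fibrillar list.

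**Figure D4:**
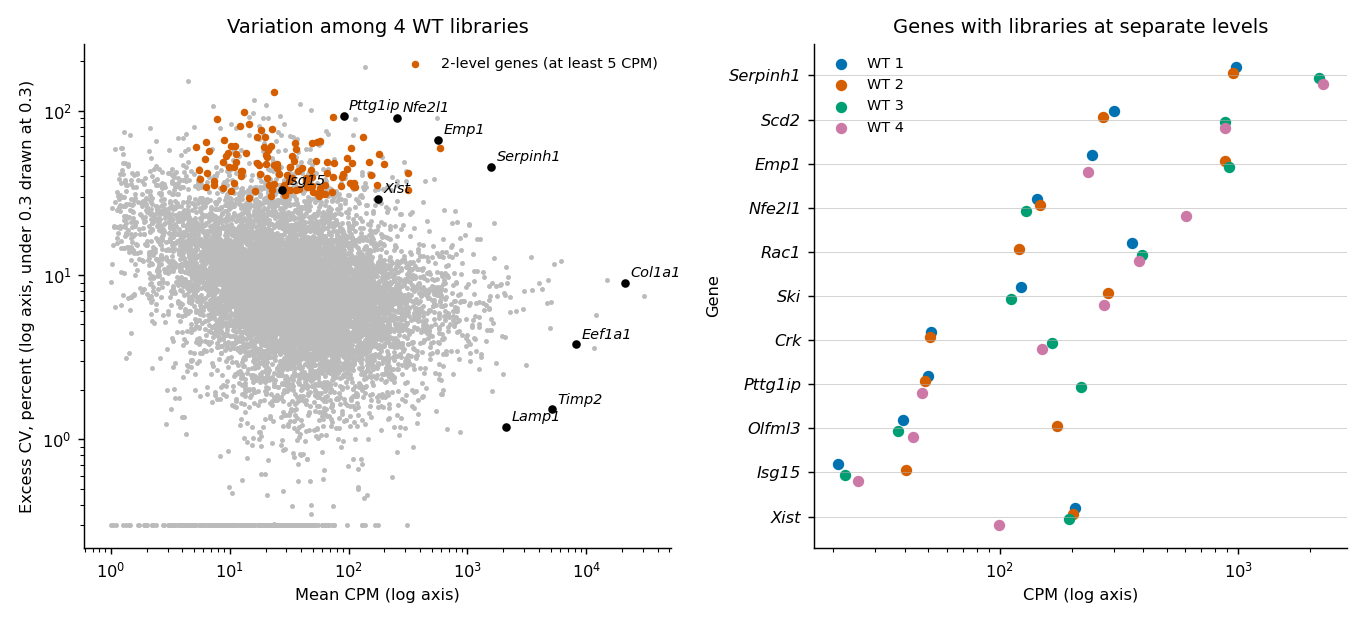
Left, excess CV (percent, log axis) against mean CPM (log axis) over the 4 WT libraries, 1 point for each detected gene of at least 1 CPM, with 2-level genes in orange and named genes in black. Right, CPM (log axis) of 11 genes in each library, among them Emp1 at 243, 875, 911 and 233 and Serpinh1 at 976, 949, 2172 and 2268 in replicates 1 to 4.

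The most even genes differed in function. Among genes of at least 20 CPM, 100 of 7303 had an excess CV of 0. The 15 of lowest CV ran from 0.264% to 0.891%, below the 0.676% to 2.65% that counting alone gives for them, so their order was not resolved at this depth. Pitrm1, a mitochondrial protease, had 128.9, 128.3, 128.3 and 128.9 CPM. Srpr, the signal recognition particle receptor, had 315, 312, 312 and 312 CPM, and Sec63, which helps translocation into the endoplasmic reticulum, had 176, 177, 177 and 174 CPM. Among 252 genes of at least 500 CPM, chosen after their values were seen, Ccnd1 had the lowest CV (1.18%), with 858, 856, 862 and 878 CPM. Lamp1 (1.22%), Dkk3 (1.24%) and Timp2 (1.54%) were next, so that a leading matrix gene was among the most even ones.

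The most variable genes differed in function. The 15 of highest excess CV, at a mean of at least 5 CPM, were Pcdhga2, Lrch4, Scamp4, Zfp46, Snhg4, Hnrnpa3, Pttg1ip, Olfml3, Nfe2l1, mt-Atp6, Sumo2, B4gat1, Tead1, Lrrc8d and Dnm3os. In most of them 1 library was far from the other 3. Nfe2l1, a transcription factor of the proteasome response, had 144, 147, 129 and 606 CPM. Pttg1ip had 49.8, 48.7, 218 and 46.9 CPM, and Olfml3, a secreted olfactomedin, had 39.4, 174, 37.2 and 43.1 CPM. Pcdhga2, one of the clustered protocadherins that share exons, had 13.8, 5.23, 11.7 and 516 CPM. For mt-Atp6 the values were 1310, 257, 343 and 311 CPM. The high library was thus a different one from gene to gene.

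Some of these genes sat at separate levels with tight values within each level. The term 2-level gene stands here for a gene whose libraries split into groups at least 1 apart on the log2 scale, with the values of each group within 0.3. This was a description set after the values were seen. Of 10774 genes 123 (1.14%) had this form, and of the 200 most variable genes 67 (33.5%), a share that the required gap itself raises. The high level was held by 1 library in 16 genes, by a pair in 32 and by 3 libraries in 75, and all 14 possible divisions of the libraries occurred. The commonest was replicate 4 low and the other 3 high, in 28 genes. The median ratio of the levels was 2.73. Serpinh1, which folds collagen in the endoplasmic reticulum, had 976, 949, 2172 and 2268 CPM. Emp1, a membrane protein of epithelia and fibroblasts, had 243, 875, 911 and 233 CPM, and Scd2, a fatty acid desaturase, had 300, 271, 878 and 882 CPM. Rac1, a small GTPase of cell migration, had 359, 120, 396 and 384 CPM. These divide the libraries in 3 different ways.

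Of the 15 most variable genes, some had an overlapping entry on the same strand. Pcdhga2 had 21 such entries, Scamp4, Snhg4 and mt-Atp6 had 2 each, and Lrch4 and B4gat1 had 1 each. Where there were several, the entry that gave the lowest CV of the sum is shown. That choice itself lowers the CV of the sum. Scamp4 had 69.4, 7.75, 7.77 and 8.80 CPM, whereas the entry Gm49322, which overlaps it on chromosome 10, had 2.76, 62.3, 62.0 and 69.01 CPM. Their sum was 72.2, 70.0, 69.8 and 77.8 CPM, with a CV of 5.16% against 131% for Scamp4 alone. For Lrch4 and its overlapping entry Gm20605 the CV was 14.7% for the sum and 149.8% for Lrch4. In other cases the sum with the overlapping entry still spread, with a CV of 58.8% for Pcdhga2 and Pcdhgc3, 26.8% for B4gat1 and Gm50388, 26.4% for mt-Atp6 and mt-Co3, and 19.5% for Snhg4 and Matr3. No overlapping entry with a mean of at least 0.5 CPM was found for Serpinh1, Emp1, Scd2, Rac1, Nfe2l1, Pttg1ip, Olfml3 or Tead1. Counting overlapping entries of any level, 1 or more was present for 33.5% of the 200 most variable genes, beside 23.8% of all genes of at least 5 CPM. Pseudogenes made up 16% of the 200 beside 3.65%. The part of overlapping models in the spread of the other genes was not tested.

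Interferon-stimulated genes had the highest median excess CV among lists with at least 14 measured genes. The skeletal muscle list (45.3%) and the neural and glial list (36.5%) were higher, on 4 measured genes each. Genes of the interferon response are switched on by the STAT and IRF factors, which bind elements built of repeated GAAA. Of 37 listed, 24 were detected and 12 lay between. Isg15, a ubiquitin-like modifier (chromosome 4, 156199455 to 156200796), had 21.0, 40.4, 22.3 and 25.3 CPM in replicates 1 to 4. Ifit1, which binds foreign RNA, had 44.7, 74.6, 55 and 46.8 CPM, Ifit3, its partner, 27.4, 40.9, 31.6 and 32.5 CPM, and Bst2 (tetherin, which holds budding virus at the membrane) 54.1, 89.8, 59.0 and 70.0 CPM. Oasl2, a relative of the oligoadenylate synthetases, had 16, 34.8, 15 and 15.6 CPM. Each of these was highest in replicate 2. The promoters of 4 of them are printed because the members moved together across the libraries. They are RefSeq promoters of build GRCm38.p6, with matches to GAAANNGAA on either strand in capitals, joined where matches overlap.
Isg15 (chr4:156200769-156201068, minus strand): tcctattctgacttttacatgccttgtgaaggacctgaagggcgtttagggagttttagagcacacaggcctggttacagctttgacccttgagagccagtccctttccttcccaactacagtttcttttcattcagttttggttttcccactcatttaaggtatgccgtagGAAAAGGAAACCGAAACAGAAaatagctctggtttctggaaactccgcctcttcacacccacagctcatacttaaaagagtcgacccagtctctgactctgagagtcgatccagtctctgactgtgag
Ifit1 (chr19:34640639-34640938, plus strand): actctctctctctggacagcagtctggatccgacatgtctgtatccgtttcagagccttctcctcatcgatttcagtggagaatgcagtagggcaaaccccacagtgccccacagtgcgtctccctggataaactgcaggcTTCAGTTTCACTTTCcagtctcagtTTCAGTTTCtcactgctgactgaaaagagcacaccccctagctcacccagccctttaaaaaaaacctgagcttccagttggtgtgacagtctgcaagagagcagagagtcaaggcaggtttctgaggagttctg
Ifit3 (chr19:34583279-34583578, plus strand): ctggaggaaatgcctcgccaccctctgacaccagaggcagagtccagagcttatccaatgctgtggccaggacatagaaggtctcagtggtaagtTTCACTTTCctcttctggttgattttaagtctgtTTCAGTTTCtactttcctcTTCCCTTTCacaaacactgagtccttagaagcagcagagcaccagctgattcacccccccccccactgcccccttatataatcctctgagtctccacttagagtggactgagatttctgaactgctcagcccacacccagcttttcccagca
Bst2 (chr8:71537423-71537722, minus strand): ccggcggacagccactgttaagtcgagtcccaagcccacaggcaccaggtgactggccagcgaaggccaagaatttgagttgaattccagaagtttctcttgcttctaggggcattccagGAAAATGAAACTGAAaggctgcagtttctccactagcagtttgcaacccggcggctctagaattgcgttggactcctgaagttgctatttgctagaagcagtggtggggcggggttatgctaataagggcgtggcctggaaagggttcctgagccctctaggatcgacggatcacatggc
The motif was found in 17 of the 27 list members with a promoter (63.0%), beside 8.57% of all 27025 promoters and 6.98% of those of detected protein-coding genes. In the 75 promoters of the 100 most variable genes the share was 6.67%. Matches in Isg15 begin 78, 72 and 66 bases before the start. A match describes the sequence, and 10 of the 27 promoters had none in this window.

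**Figure D5:**
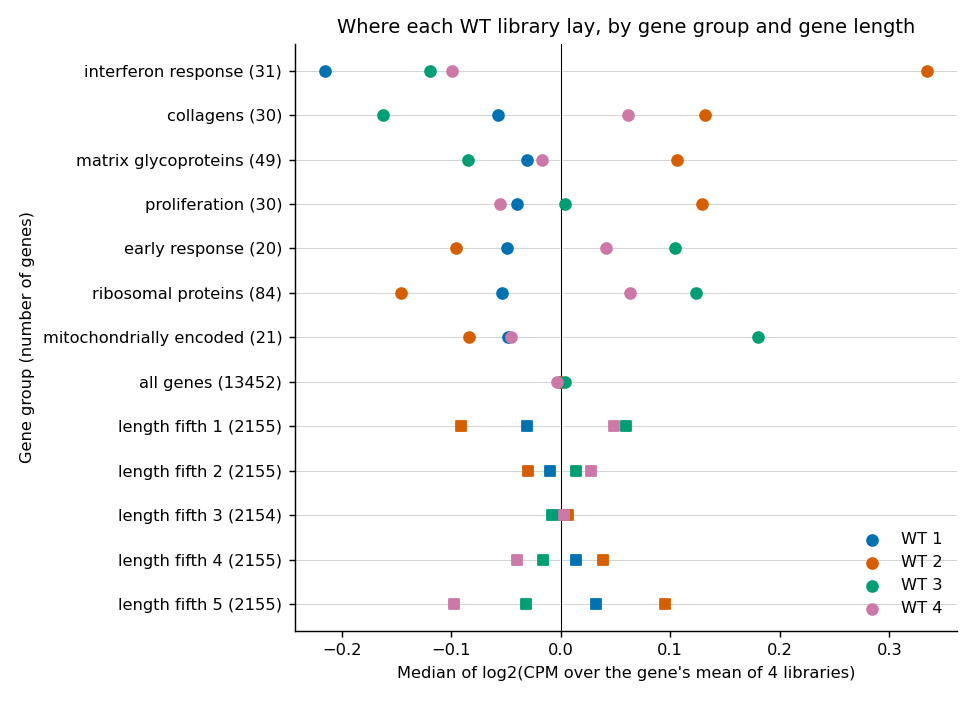
Median over genes of log2 of CPM over the gene's mean of 4 libraries, for gene groups (circles, with the number of genes) and for 5 classes of genes by length implied by CPM and FPKM (squares, 1 shortest, 5 longest), 1 color for each library. The interferon group lies farthest to the right in WT 2 at 0.33, and the length classes run from -0.09 to 0.10 in the same library.

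Over the 31 interferon genes of at least 1 CPM, 27 (87.1%) were highest in replicate 2, beside 28.3% of all 13452 genes. The median log2 ratio to the gene's own mean was -0.22, 0.33, -0.12 and -0.10 in replicates 1 to 4. Without replicate 2 the list's median excess CV was 7.21% instead of 18.9%, so 1 library carried this spread. Other groups leaned by library as well. Collagens were highest in replicate 2 in 20 of 30 genes and lowest in replicate 3 in 19, ribosomal proteins were highest in replicate 3 in 54 of 84 genes and lowest in replicate 2 in 66, and 19 of 21 mitochondrially encoded genes were highest in replicate 3. Gene length moved with these differences. Genes were put in 5 length classes of equal size. Of the shortest class 8.82% were highest in replicate 2, with a median log2 ratio of -0.09, and of the longest class 54.9%, with a median of 0.10. Ribosomal genes are short and collagen genes long, and the part of length in their lean was not tested. The part of length in the lean of the interferon genes was not tested either.

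Of the 6 sex-linked genes measured, 1 was detected. Xist, a long RNA of female cells that silences an X chromosome, had 10.4, 10.1, 9.92 and 5.02 FPKM, so replicate 4 was lower than the other 3 libraries. The Y-linked Ddx3y (0.00901 FPKM) and Kdm5d (0.00178 FPKM) were near 0, and Eif2s3y and Uty, as well as Tsix, were listed at 0. The sex of the pups is not given in the sources used here.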

How the data were processed

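Poly(A) RNA of 4 WT samples was sequenced as stranded TruSeq libraries in pairs. The authors deposited 1 table with gene counts and FPKM for each library. Per the submitters' processing notes the tools were FastQC, HISAT2, StringTie and edgeR, with no versions, and reads were mapped to the Ensembl mouse genome. The program that counted, whether it used strand, and whether a count is a read or a pair are not given in the sources used here. Low counts pile up at multiples of 4 (1.66 to 1.80 times as many genes at a count of 4 as at 1), so the counting part of the spread may be understated. A count of 0 is listed as an FPKM of 0.0001 in the deposited table. The authors' fold changes and p-values, and 8 columns of the other genotype, were not used. Gene coordinates are those of the table. Of 55141 gene IDs shared with the GENCODE vM21 annotation of GRCm38, 94.2% had the same start and end.

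From the counts, TMM-scaled CPM were made with edgeR 4.0.16 (R 4.3.3, prior count of 2 on the log2 scale), and all other values with Python 3.11.15, numpy 2.4.6 and pandas 2.3.3. Excess CV is the square root of the squared CV less 1 over the mean count, or 0. It was used at a mean of at least 1 CPM. Copies were searched with blastn 2.17.0. Promoters of 300 bases came from RefSeq, matched by symbol. Scripts were tested on simulated data. As 1 genotype was described, no test between groups was made. The members and the gene lists were chosen with earlier results of these data known. Genes named were the 30 of highest mean FPKM with an annotated symbol, the 15 of highest excess CV (at least 5 CPM) and the 15 of lowest (at least 20 CPM), leaving out model names, up to 4 of the highest members of each list, the highest of lists with none detected, and all of the RT-qPCR, western blot, reference and sex-linked lists, apart from some members that are not reported here. Other genes named, such as those at 0, were chosen after their values were seen. Alternatives were other detection limits, scalings (DESeq2 1.42.0 among them), units and filters, and leaving out each library.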

Additional observations from a re-analysis of the deposited data

Results flagged for a closer look

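Of 235 values checked, 21 (8.94%) had 1 library whose gap to the nearest other library, as a share of the whole range, was above the 95% critical value of Dixon's test for 4 samples. Chance alone gives about 1 in 20, or 11.8. Of the 21, 10 are among the 15 most variable genes, which were chosen for their spread and so raise the total. The 21 therefore cannot be read as more than chance gives, and single flags below were not told apart from chance. The library concerned was replicate 4 in 8 cases, replicate 2 in 7, replicate 1 in 4 and replicate 3 in 2.

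Replicate 4 was high in Pcdhga2 (gap share 0.983), Nfe2l1 (0.967), Lrch4 (0.945) and Cdkn1a (0.833). The summed FPKM of the fibroblast list was also high in it (0.971), at 4077 against 3745 to 3755 FPKM in the other libraries, and so was that of the lymphoid list (0.832), at 1.75 against 1.19 to 1.28 FPKM. It was low in Xist (0.905). The summed sex-linked list, which is almost all Xist, was low in it as well (0.912), at 5.02 against 9.96 to 10.4 FPKM.

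Replicate 1 was high in Scamp4 (0.982), B4gat1 (0.937), mt-Atp6 (0.914) and Zfp46 (0.909). Replicate 3 was high in Pttg1ip (0.983) and in the mitochondrial chaperone Hspe1 (0.842). Replicate 2 was high in Olfml3 (0.958) and Sumo2 (0.848). It was low in Ppil2 (0.917), the chemokine Cxcl14 (0.896), Pitrm1 (0.850) and the tubulin Tuba1a (0.830). The summed skeletal progenitor list was also low in it (0.923), at 1741 against 1875 to 1886 FPKM. Most of that sum is Acta2 (1233 against 1296 to 1329 FPKM) and Ctsk (321 against 358 to 385 FPKM), whereas the list median is 5.11 FPKM.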

How the results depend on the processing

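No paired analysis was possible because only 1 genotype was described. Of 141 values recomputed under alternatives, 116 stayed within a set limit and 25 did not. The limit was the SD between libraries for shares and between pairs for correlations, and 1.5 times for counts. For excess CV it was an error computed from leaving out each library, and for promoter shares a confidence interval over genes. Leaving out 1 of 4 libraries cannot move a mean share by a whole SD, so those values had to stay within the limit. With CPM in place of FPKM, 18 of the 30 leading genes stayed among the first 30. By summed FPKM the 3 matrix classes held 10.2% instead of 17.8%, and 366 instead of 635 genes held 50%. At a limit of 5 FPKM 46 instead of 82 lineage markers were detected. The median excess CV of 9.03% became 8.01% at a mean of at least 5 CPM, 16.3% with no filter, and 7.21% with 4 over the mean count as the counting part. The lowest Pearson correlation of 0.974 became 0.967 at a mean of at least 10 CPM and 0.985 on log2(FPKM + 1). With levels 0.5 apart there were 474 instead of 123 genes at separate levels. The counting part and the settings for such genes were chosen after seeing the data.

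Leaving out each library in turn gave a median excess CV of 7.87% to 9.11%, and 7.21% (without replicate 2) to 23.0% for the interferon list. All 15 most variable genes kept their place under the other scalings, but only 8 to 10 when a library was left out. The number of detected genes ran from 11013 to 12880. Depth limits little at these totals, whereas 4 libraries give a coarse CV for any single gene.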
